A study of Mus musculus with 17 samples.

Results

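The genes described here encode the ezrin, radixin, and moesin (ERM) proteins and 2 of their closest associates. They are *Ezr* (ezrin), *Rdx* (radixin), *Msn* (moesin), *Nf2* (merlin), and *Slc9a3r1* (NHERF1, also called EBP50), and they were chosen by symbol, as 5 of the 26556 genes in the count files. Each symbol belonged to exactly 1 Ensembl gene. The choice was made with regional differences of these libraries already known, so the levels of the 5 genes are a description and are given with no *p* value.

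ERM proteins tie the plasma membrane to the actin cortex. Their amino-terminal FERM domain holds membrane proteins, phosphoinositides, and the scaffold NHERF1, and their carboxy-terminal end holds filamentous actin once the folded protein has been opened by lipid binding and threonine phosphorylation. Merlin shares the FERM domain but lacks the actin-binding end of the ERM proteins and is known as a growth-restraining protein upstream of the Hippo kinases. In astrocytes, ezrin is known from the thinnest peripheral processes, the leaflets and filopodia that lie against synapses, and is used as a marker of them.

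Astrocytes were purified by fluorescence-activated cell sorting from postnatal day 7 *Gfap::Gfp* mice, a line on the FVB/N-Tg background (FVB in the labels) in which the *Gfap* promoter drives green fluorescent protein, and their RNA was sequenced in bulk. The primary somatosensory cortex gave 4 libraries. The thalamus gave 13, of which 5 came from the dorsolateral geniculate nucleus (dLG), 4 from the ventral posteromedial nucleus (VPM), and 4 from the ventromedial geniculate nucleus (MGv). All 4 groups were untreated, shared this genotype and age, and were made of tissue pooled from 4 brains per library.

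Library totals ranged from 18213687 to 50366363 counts, with cortex replicate a holding 2.46 times the median of the others. In dLG replicate c 17749 genes were detected, and in every other library at least 21052. Levels are given as CPM, in which each library's counts are divided by its total after scaling with edgeR's TMM factors, and 3 counts correspond to between 0.0596 and 0.165 CPM. The smallest count of any of the 5 genes in a library was 606, for *Nf2* in cortex replicate c, so none was near the limit of detection. The summed level of 10 astrocyte markers was between 6383 and 15680 CPM in every library. The 6 oligodendrocyte precursor markers summed to between 5983 and 8572 CPM, so the sorted cells also held transcripts of that lineage throughout. The 6 oligodendrocyte markers summed to between 1893 and 2844 CPM in the cortex and between 1285 and 5734 CPM in the thalamus. *Gfap* itself, whose promoter marks the sorted cells, was between 8.98 and 19.2 CPM in the VPM and between 450.0 and 537 CPM in the cortex, and it reached 5519 CPM in MGv replicate c. The astrocyte sum of that MGv library was the highest of the 17 because of *Gfap*, and without *Gfap* it was 10160 CPM, below the 12430 to 13510 CPM of the cortical libraries. The 10 neuronal markers summed to between 774 and 1016 CPM in the cortex and between 444 and 1627 CPM in the thalamus.

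Since *Ezr*, *Rdx*, and *Msn* are close paralogs and the reads were 50 bases long, it was first determined whether such reads can be assigned to 1 gene. Of all 50-base stretches in the annotated transcripts (GENCODE M21), 0 were shared between any of the 5 genes. With other annotated genes, *Rdx* shared 0 of 4589 stretches, *Nf2* 0.142% of 7051, *Ezr* 0.185% of 3240, *Slc9a3r1* 0.8% of 1876, and *Msn* 1.39% of 6276. The stretches of *Msn* overlap *Gm24718*, a small RNA gene within it on the opposite strand. The coding stretch of 50 bases within 1 exon in which *Ezr* is most like *Rdx* and *Msn* together is shown for the 3 genes, since it is where a read could most easily be placed on the wrong gene. Capitals mark the bases that differ from *Ezr*.
Ezr: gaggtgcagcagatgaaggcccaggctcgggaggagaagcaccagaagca
Msn: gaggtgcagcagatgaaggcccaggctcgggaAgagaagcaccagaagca
Rdx: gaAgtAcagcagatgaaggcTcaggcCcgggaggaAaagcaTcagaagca

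The stretch lies in exon 8 of *Ezr* (GRCm38 chr17:6742699-6742748, minus strand) and in exon 8 of *Msn* (chrX:96160193-96160242, plus strand). In *Rdx* it lies in exon 9 (chr9:52069720-52069769, plus strand). In the 3 ERM genes it starts at the same coding base, number 901. *Msn* differed from *Ezr* there at 1 base and *Rdx* at 6. That 1 base was also the fewest by which any 50-base coding stretch of *Msn* within an exon differed from one of *Ezr*. The corresponding minimum was 4 bases between *Ezr* and *Rdx*, 7 between *Rdx* and *Msn*, and 18 between *Ezr* and *Slc9a3r1*. No stretch was identical, but a read of this part of *Ezr* with a sequencing error at that base can match *Msn*.

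The libraries address whether astrocytes of the thalamus and the cortex, and of the sensory nuclei of the thalamus, express different genes. *Ezr* was 4.79-fold higher in the cortex than in the thalamus. Of the remaining genes, *Slc9a3r1* was 1.39-fold, *Msn* 1.26-fold, and *Rdx* 1.22-fold higher in the cortex, and *Nf2* was 1.51-fold higher in the thalamus. In all, 3 of the 5 genes passed the threshold used for all genes (adjusted *p* under 0.1, edgeR's quasi-likelihood test), *Nf2* as higher and *Ezr* and *Slc9a3r1* as lower in the thalamus. Over all 17856 genes tested, 5.45% passed it as higher and 5.93% as lower in the thalamus. Because the genes were selected on this contrast, nothing is read from their count. In bulk RNA, fewer cells that express a gene and less RNA per cell cannot be told apart.

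**Figure D1:**
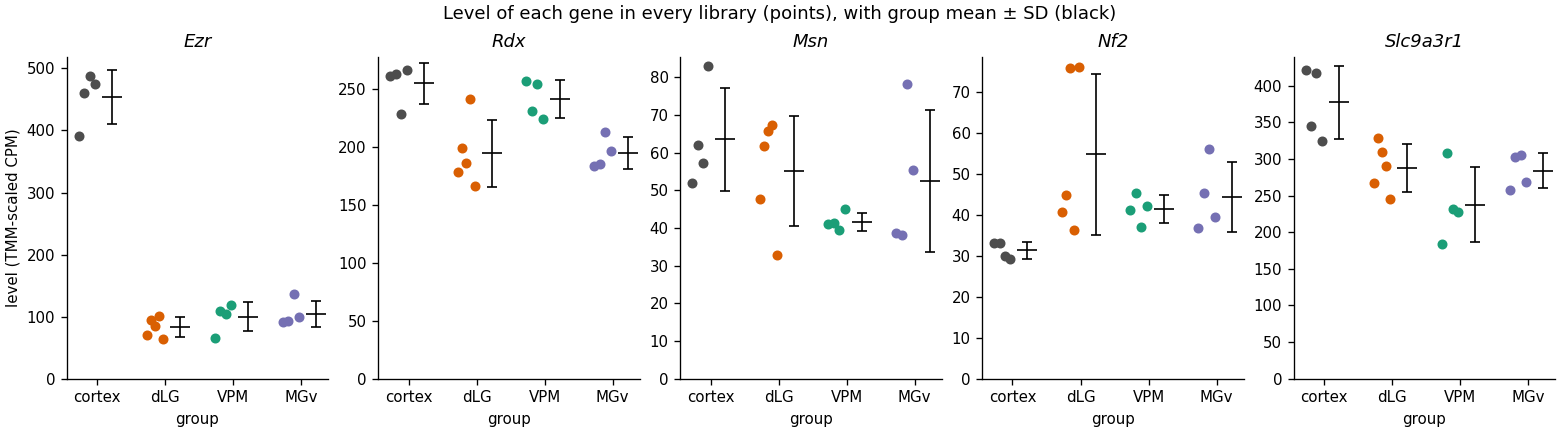
Level in TMM-scaled CPM (vertical axes, each from 0) of each of the 5 genes in every library of the cortex, dLG, VPM, and MGv, with 1 point per library and black bars for the group mean ± SD. The 4 cortical libraries sit between 391 and 487 CPM for *Ezr*, far above the 13 thalamic ones, while for *Nf2* they sit below every thalamic library.

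*Ezr* (chr17:6738041-6782784, minus strand) encodes ezrin, the ERM protein of microvilli and of fine glial processes. In the cortex it was counted at 391, 461, 487, and 476 CPM in replicates a to d, with a mean of 454 ± 43.1 (SD, *n* = 4). It was at 70.2, 95.2, 84.7, 101, and 63.8 CPM in the 5 dLG libraries (83.0 ± 15.9). The VPM libraries held 65.7, 109.7, 105, and 118 CPM (99.5 ± 23.2) and the MGv libraries 90.9, 93.7, 136, and 98.7 CPM (105 ± 20.9). The regions did not overlap, as the lowest cortical library was 2.88-fold above the highest thalamic one, MGv replicate c. Within the thalamus the ranges of all 3 nuclei overlapped.

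The fitted log2 fold change of *Ezr* between thalamus and cortex was −2.26 (SE 0.15). Of the genes tested, 258 (1.45%) had a lower value. In a count that uses the ranges alone, 3.09% of all genes had every thalamic library below every cortical one, *Ezr* among them. When the libraries were split by the first digits of the library number given in the labels, *Ezr* was 4.77-fold higher in the cortex within the larger series (2 cortical and 8 thalamic libraries) and 5.01-fold higher within the second (2 and 4 libraries). Every MGv library was in the larger series, so the thalamic libraries of the second were from the dLG and VPM only. The remaining library, dLG replicate c, stood alone in its series. In all 24 alternative fits it stayed past the threshold, with log2 fold changes between −2.33 and −2.20.

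Markers of ependymal cells, the ciliated lining of the ventricles, varied widely among the cortical libraries. The summed level of 8 ependymal and choroid plexus markers was between 5.14 and 96.8 CPM in the cortex and between 0.425 and 14.4 CPM in the thalamus. Of the 4 of these markers that could be tested, 2 passed the threshold, both lower in the thalamus. They were *Foxj1*, the regulator of motile cilia (17.1 ± 17.8 in 4 cortical and 2.704 ± 1.59 CPM in 13 thalamic libraries, adjusted *p* = 0.00244), and *Rsph1*, a radial spoke gene (adjusted *p* = 0.000867). These genes were at 2.87 and 0.605 CPM in cortex replicate a, and at 42.9 and 28.3 CPM in replicate d. *Folr1* (log2 fold change 0.32) and *Aqp1* (−1.35) did not pass. Cortex replicate a had the lowest ependymal sum of the cortex (5.14 CPM, within the thalamic range) and the lowest cortical level of *Ezr*, 391 CPM. That level was 2.88-fold above the highest thalamic library. In cortex replicates b, c, and d, sums of 24.8, 34.0, and 96.8 CPM went with *Ezr* at 461, 487, and 476 CPM. The sum of the 9 astrocyte markers other than *Gfap* was 13060 ± 503 CPM in the cortex and 8150 ± 1140 in the thalamus. Of the 10 astrocyte markers, *Slc1a3*, *Slc1a2*, and *Aldoc* were lower and *S100b* higher in the thalamus. Of the 10 neuronal markers, *Slc17a6*, *Nefm*, and *Nefl* were higher and *Rbfox3* lower in the thalamus. The part of these cells in the levels of *Ezr* was not tested.

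**Figure D2:**
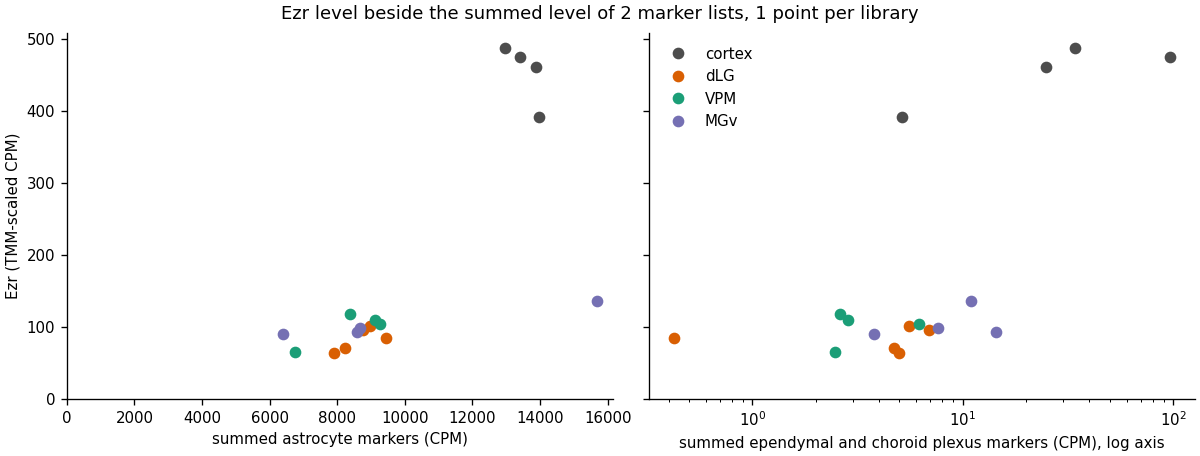
*Ezr* in TMM-scaled CPM (vertical axis) against the summed CPM of 10 astrocyte markers (left, linear axis) and of 8 ependymal and choroid plexus markers (right, log axis), with 1 point per library colored by group. Cortex replicate a has the lowest ependymal sum (5.14 CPM) and the lowest *Ezr* (391 CPM) of the cortex. Cortex replicate d has the highest sum (96.8 CPM) with *Ezr* at 476 CPM, below the 487 CPM of replicate c. The MGv library at 15680 CPM on the left owes 5519 CPM of its sum to *Gfap*.

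*Rdx* (chr9:52047173-52088735, plus strand) encodes radixin, an ERM protein known from the stereocilia of hair cells and the bile canaliculi of hepatocytes. Its levels were 261, 263, 229, and 266 CPM in the cortex (255 ± 17.5, *n* = 4). In the VPM they were 257, 231, 254, and 224 CPM (241 ± 16.3), so that 3 of 4 libraries lay within the cortical range. The dLG had 179, 199, 186, 242, and 167 CPM (194 ± 29.0) and the MGv 184, 185, 213, and 196 CPM (195 ± 13.5). The 4 MGv libraries lay below the cortical ones without overlap, by a factor of 1.07 between the nearest libraries.

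The log2 fold change of *Rdx* between thalamus and cortex was −0.29 (SE 0.12), short of the threshold, with a 95% interval from −0.51 to −0.06. It passed the threshold in 4 of 24 alternatives: with DESeq2 (−0.27), in a fit of all 4 groups (−0.29), and without VPM replicate a (−0.31) or c (−0.31). Its direction was the same within both library number series, with 1.21-fold and 1.17-fold higher levels in the cortex.

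*Msn* (chrX:96096042-96168552, plus strand) encodes moesin, the ERM protein that prevails in leukocytes and endothelium. The cortical libraries held 51.9, 62.0, 57.2, and 82.9 CPM (63.5 ± 13.6, *n* = 4). The dLG libraries held 47.8, 61.7, 65.8, 67.4, and 32.9 CPM (55.1 ± 14.6) and the MGv libraries 38.6, 38.0, 78.1, and 55.4 CPM (52.5 ± 18.9), both spanning the cortical mean. The VPM was the least variable group at 40.9, 41.3, 39.4, and 45.1 CPM (41.7 ± 2.41), and all 4 of its libraries were below the cortical ones.

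The log2 fold change of *Msn* between thalamus and cortex was −0.34 (SE 0.20), with an interval from −0.72 to 0.05, and did not pass the threshold in any of 24 alternatives. Without cortex replicate d, the cortical library with the highest level, it was −0.15. The 10 microglial markers summed to between 12.8 and 22.3 CPM in the cortex and between 7.50 and 117 CPM in the thalamus. Of the 9 that were tested, *C1qc* and *Itgam* passed as higher in the thalamus, and the rest did not pass. *Itgam* had at most 3 counts in every cortical library. The 10 endothelial markers summed to between 7.67 and 13.6 CPM in the cortex and between 6.83 and 65.9 CPM in the thalamus. The highest microglial sums, 117, 73.6, and 67.1 CPM in dLG replicates a, d, and e, stood beside *Msn* at 47.8, 67.4, and 32.9 CPM. By group, the mean microglial sum and mean *Msn* were 11.4 and 41.7 CPM in the VPM and 46.9 and 52.5 CPM in the MGv. In the dLG they were 62.2 and 55.1 CPM, and in the cortex 16.5 and 63.5 CPM. A sum over 10 markers does not give the share of *Msn* that comes from such cells. The part of these cells in the level of *Msn* was not tested.

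*Nf2* (chr11:4765845-4849536, minus strand), the merlin gene and the least abundant of the 5, went the other way. It was at 33.2, 33.2, 30.0, and 29.3 CPM in the cortex (31.4 ± 2.06, *n* = 4). The VPM held 41.2, 45.3, 37.0, and 42.3 CPM (41.4 ± 3.41), and the MGv 36.7, 45.5, 56.2, and 39.5 CPM (44.5 ± 8.61). In the dLG, replicates c and e stood at 75.9 and 76.3 CPM and the others at 40.8, 45.0, and 36.3 CPM (54.9 ± 19.6). Replicate c of the dLG was the library with the fewest genes detected. All 13 thalamic libraries were above all 4 cortical ones, as were those of 1.67% of all genes tested.

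The log2 fold change of *Nf2* between thalamus and cortex was 0.60 (SE 0.19). The call depended on the number of cortical libraries, since it was lost without cortex replicate a (0.62), b (0.62), c (0.60), or d (0.60), although the value hardly moved. Within the library number series the log2 ratio of thalamus to cortex was 0.53 and 0.58.

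*Slc9a3r1* (chr11:115163341-115181181, plus strand) encodes NHERF1, a scaffold whose PDZ domains hold transporters and receptors and whose tail binds the FERM domain of active ERM proteins. It was counted at 422, 345, 417, and 323.9 CPM in the cortex (377 ± 49.8, *n* = 4). The dLG held 267, 328, 309, 290.3, and 245 CPM (288 ± 33.1), the MGv 258, 303, 305, and 269 CPM (284 ± 23.9), and the VPM 183, 308, 232, and 227 CPM (237 ± 51.6). In total, 12 of the 13 thalamic libraries were below the lowest cortical one, and dLG replicate b exceeded cortex replicate d.

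The log2 fold change of *Slc9a3r1* between thalamus and cortex was −0.48 (SE 0.13). It fell short of the threshold in 2 of 24 alternatives, without cortex replicate a (−0.42) and without cortex replicate c (−0.40). Within the library number series it was 1.35-fold and 1.495-fold higher in the cortex, the same direction in both.

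**Figure D3:**
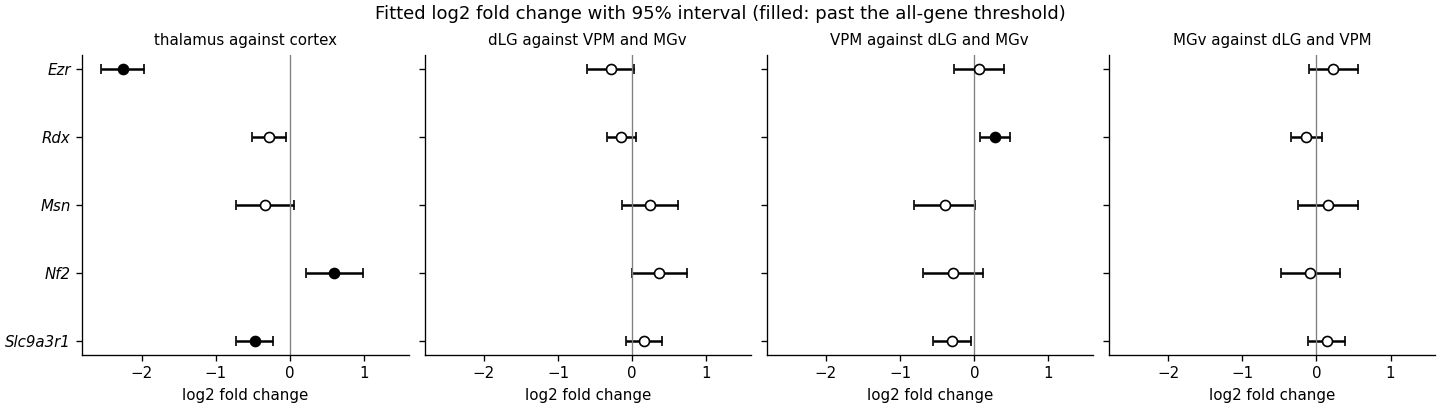
Fitted log2 fold change (horizontal axes) with its 95% interval for each gene in the comparison of thalamus with cortex and of each nucleus with the mean of the other nuclei, with filled points for genes past the threshold of all genes. *Ezr* is the outlying point at −2.26 in the first panel, and in the nuclei only *Rdx* in the VPM (0.28) is filled.

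Levels of different genes were compared per kilobase of exon. On that scale the cortical mean was 196 CPM per kb for *Slc9a3r1*, 138 for *Ezr*, 54.9 for *Rdx*, 10.04 for *Msn*, and 4.60 for *Nf2*. The summed level of the 3 ERM genes was 203 ± 13.6 CPM per kb in the cortex (*n* = 4), and it was 75.9 ± 12.8 in the dLG (*n* = 5), 88.9 ± 4.93 in the VPM (*n* = 4), and 82.1 ± 12.1 in the MGv (*n* = 4). The lowest cortical sum was 183 CPM per kb and the highest thalamic one 99.6.

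The leading ERM gene differed between the regions, which follows from the level of *Ezr* and is not a separate result. *Rdx* itself was at 45.05 CPM per kb in the thalamus, below its 54.94 in the cortex. Its larger share in the thalamus therefore reflects the lower *Ezr* in the sum. In the cortex, *Ezr* made up 67.9 ± 2.85% of the ERM sum, *Rdx* 27.2 ± 2.79%, and *Msn* 4.92 ± 0.794%. In the thalamus *Rdx* was the most abundant in every nucleus, at 55.5 ± 2.94% for the dLG, 58.8 ± 6.43% for the VPM, and 51.5 ± 3.66% in the MGv, and *Ezr* followed at 33.1 ± 1.52%, 33.8 ± 6.58%, and 38.6 ± 1.98%. The highest *Ezr* share of a thalamic library was 41.5% and the lowest of a cortical library 64.8%. The exon length matters most for *Msn*, whose share in the cortex became 7.54% and in the dLG 16.7% when the length of the longest transcript was used in place of all exons. The order of the 3 genes was the same in every group with either length.

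**Figure D4:**
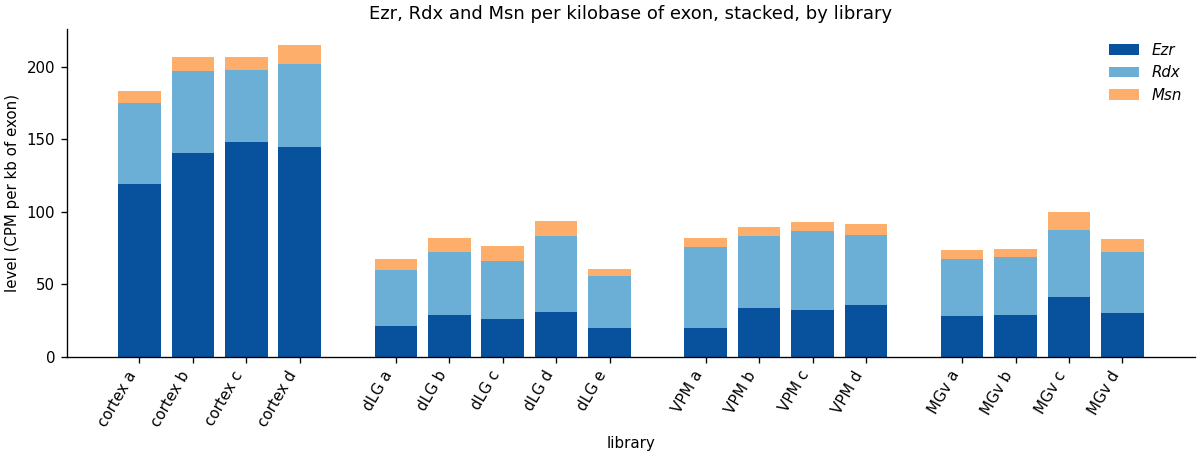
Stacked levels of *Ezr*, *Rdx*, and *Msn* in CPM per kilobase of exon (vertical axis) in each of the 17 libraries (horizontal axis, by group and replicate). The *Ezr* part takes 64.8 to 71.7% of each cortical bar and 24.4 to 41.5% of each thalamic bar.

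The nuclei were then compared with each other, each against the mean of the other nuclei. In the dLG 0 of the 5 genes passed the threshold in edgeR, against 0.941% (higher) and 0.214% (lower) of 17319 genes tested. In the MGv there were also 0 of 5, against 1.57% and 0.756%. At an unadjusted *p* under 0.05 the count was 0 in both nuclei, and DESeq2 called 0 in both. *Ezr* had log2 fold changes of −0.29 (SE 0.16) for the dLG, 0.06 (SE 0.17) for the VPM, and 0.23 (SE 0.17) for the MGv, and the value in the MGv became 0.06 without MGv replicate c. For *Nf2* the value was 0.37 (SE 0.19) in the dLG, with an interval from −0.01 to 0.74, and 0.15 when that series was a covariate, 0.23 without dLG replicate c, and 0.21 without dLG replicate e.

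In the VPM, 1 of the 5 genes passed the threshold, *Rdx* as higher, where 7.07% of all genes passed it as higher and 9.78% as lower. The log2 fold change of *Rdx* was 0.28 (SE 0.10), and its value lay just inside the threshold. The call held in 5 of 20 alternatives, where values ran from 0.25 to 0.33. It was lost without VPM replicate a (0.25), b (0.30), c (0.27), or d (0.33), without dLG replicate a (0.28), b (0.30), or c (0.27), and without MGv replicate a (0.27), b (0.29), or d (0.31). *Slc9a3r1* (−0.30, SE 0.13), *Nf2* (−0.29, SE 0.21), and *Msn* (−0.40, SE 0.21) were fitted as lower in the VPM and did not pass. *Slc9a3r1* passed without VPM replicate b, at −0.44, and was at −0.19 without VPM replicate a. *Msn* was at −0.26 without MGv replicate c.

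The VPM libraries also differed from the other nuclei in markers of other cells. All 9 testable microglial markers were lower (summed level 7.50 to 13.4 CPM in the VPM, 15.1 to 117 in the dLG, and 21.02 to 67.0 in the MGv). All 6 oligodendrocyte markers were higher (summed level 1985 to 5734 CPM in the VPM, 1498 to 3306 in the dLG, and 1285 to 2216 in the MGv). The precursor markers *Pdgfra* and *Cspg4* and the astrocyte markers *Gfap* and *Sox9* were lower, and the neuronal markers *Slc17a7* and *Nefm* and the astrocyte markers *Gja1* and *S100b* were higher. *Folr1* of the choroid plexus list and *Dcn* of the fibroblast list were lower. Their part in the values of the VPM was not tested.

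Genes of the surrounding pathways were taken from 7 lists of 139 genes, of which 137 were in the files and 130 were tested between the regions. In the thalamus 12 rose and 19 fell relative to the cortex, which is 23.8% of those tested, beside 11.4% of all genes. Their median log2 fold change was −0.01, and that of all genes 0.02. Without cortex replicate d, the count was 18 in place of 31. The lists were chosen with earlier results of these data known. Nothing is therefore read from these counts or from those of the single lists.

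The list of enzymes that switch ERM proteins between the folded and the open state held 16 genes. Of these, 1 passed the test (6.25%, beside 11.4% of all genes). This was *Prkca*, the gene of protein kinase C alpha, which was 1.46-fold higher in the thalamus (36.1 ± 7.24 against 24.7 ± 2.60 CPM, adjusted *p* = 0.0419). The other 15, among them the genes of the ERM kinases LOK (*Stk10*) and SLK, did not pass, and the median log2 fold change of the list was 0.14.

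Of the membrane proteins that ERM proteins hold, 9 were tested. In the thalamus 2 fell and 1 rose (33.3%, beside 11.4% of all genes). *Cd44*, the hyaluronan receptor, was 2.48-fold higher in the cortex (49.3 ± 5.95 against 19.9 ± 7.92 CPM, adjusted *p* = 0.0013). *Pdpn*, podoplanin, a mucin-type protein of cell protrusions, was 2.04-fold higher there (75.0 ± 8.29 against 36.7 ± 10.7 CPM, adjusted *p* = 0.00187). *Selplg*, a selectin ligand of leukocytes, was higher in the thalamus at a low level (3.00 ± 2.32 against 0.350 ± 0.240 CPM, adjusted *p* = 0.0355). Of the 9 tested microglial markers, 2 were higher there too, *C1qc* and *Itgam*.

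Of 7 tested partners of NHERF1, 2 fell in the thalamus (28.6%, beside 11.4% of all genes). The glutamate transporter gene *Slc1a3* (GLAST) was at 5227 ± 514 CPM in the cortex and 1586 ± 207 in the thalamus, a log2 fold change of −1.72 (adjusted *p* = 1.78e-09). *Pdgfrb*, a growth factor receptor gene best known from pericytes, was at 38.1 ± 12.9 against 2.84 ± 2.58 CPM (adjusted *p* = 1.22e-05). The 6 mural cell markers summed to between 12.6 and 19.1 CPM in the cortex, with a median of 13.4. In the thalamus they summed to between 0.725 and 36.5 CPM, with a median of 5.87. The 36.5 CPM was in dLG replicate a, and the next highest thalamic sum was 10.1 CPM. Of the 6 markers, 0 passed the threshold. The part of mural cells in the level of *Pdgfrb* was not tested.

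Of 22 tested genes of the Hippo pathway and its targets, 4 fell and 3 rose (31.8%, beside 11.4% of all genes). Both growth-factor-like target genes of the YAP and TAZ coactivators in the list fell, *Ccn1* from 353 ± 214 CPM in the cortex to 129 ± 36.2 in the thalamus (adjusted *p* = 0.000899) and *Ccn2* from 6.49 ± 1.53 to 1.44 ± 1.52 CPM (adjusted *p* = 0.0349). *Wwtr1*, the gene of TAZ, was 1.47-fold higher in the cortex (adjusted *p* = 0.0372), and *Frmd6*, an upstream FERM protein, 1.72-fold (adjusted *p* = 0.0169). The genes that rose were *Lats1*, a kinase of the pathway, and the angiomotins *Amot* and *Amotl1*, with adjusted *p* values between 0.0827 and 0.0992, just inside the threshold.

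Of 32 other FERM-domain genes, 6 rose and 4 fell (31.2%, beside 11.4% of all genes). *Ptpn14*, a phosphatase known to bind YAP, was 5.98-fold higher in the thalamus (15.8 ± 8.89 against 2.63 ± 1.36 CPM, adjusted *p* = 0.00162), and *Ptpn3* was higher there at a low level (5.51 ± 3.11 against 0.309 ± 0.199 CPM, adjusted *p* = 0.000582). The kinase gene *Ptk2b* (Pyk2) was 9.33-fold higher in the cortex (17.5 ± 4.28 against 1.88 ± 2.44 CPM, adjusted *p* = 0.00688). *Epb41*, which encodes the founding protein of the 4.1 family, was 1.52-fold higher in the cortex (adjusted *p* = 0.00899), and *Frmd4b* 1.95-fold (adjusted *p* = 0.00622).

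Of the 32 genes of actin protrusions, 3 fell and 1 rose (12.5%, beside 11.4% of all genes). *Pls1*, which encodes plastin 1, a bundler of the actin core of microvilli, was 11.8-fold higher in the cortex (89.2 ± 9.21 against 7.53 ± 3.32 CPM, adjusted *p* = 1.89e-07). *Vil1*, the gene of villin, another microvillar bundler, was higher in the thalamus at a low level (3.29 ± 1.66 against 0.207 ± 0.257 CPM, adjusted *p* = 0.00515). *Baiap2*, which encodes the membrane-bending protein IRSp53, was 2.03-fold higher in the cortex (adjusted *p* = 0.0032), and *Gsn*, gelsolin, 1.73-fold (adjusted *p* = 0.0159). The remaining 28 of 32 genes, including actin, cofilin, the Arp2/3 subunits, fascin, and *Cdc42*, did not pass.

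In the thalamus, 4 of 12 membrane proteins and enzymes typical of astrocyte processes fell (33.3%, beside 11.4% of all genes). *Glul*, glutamine synthetase, was 3.19-fold higher in the cortex (adjusted *p* = 0.000167), *Slc1a2*, the glutamate transporter GLT-1, 2.24-fold (adjusted *p* = 0.00141), *Mlc1* 1.69-fold (adjusted *p* = 9.88e-05), and *Hepacam* 1.30-fold (adjusted *p* = 0.0665). The products of *Mlc1* and *Hepacam* are partners at astrocyte junctions.

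**Figure D5:**
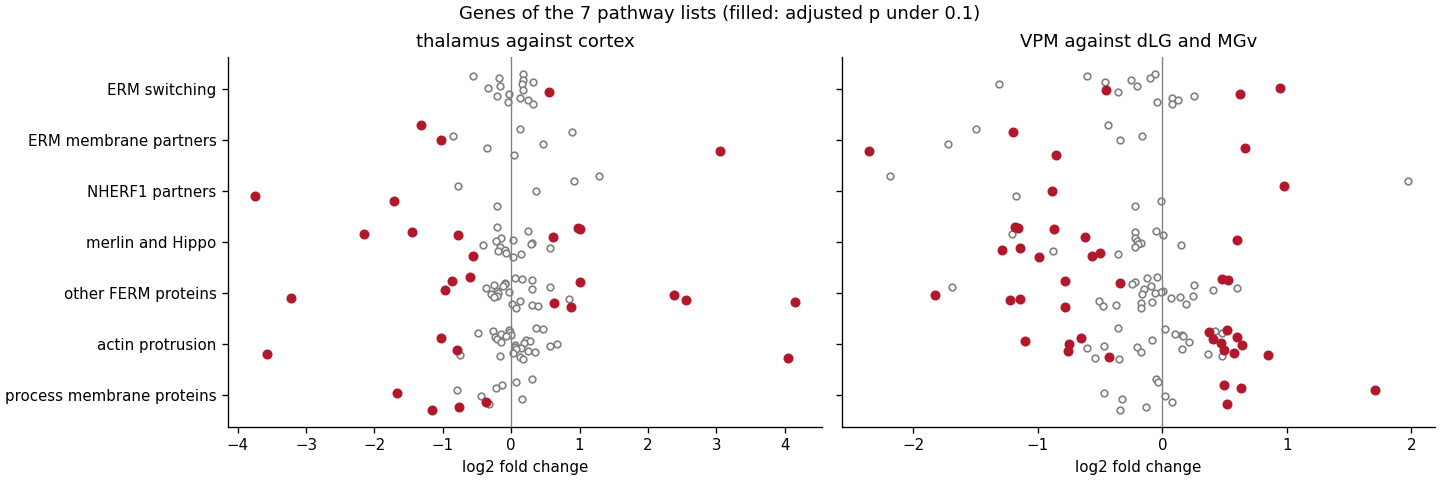
Log2 fold change (horizontal axes) of every tested gene of the 7 pathway lists, thalamus against cortex (left) and VPM against the other nuclei (right), with 1 point per gene, filled where the adjusted *p* was under 0.1. On the left 31 of 130 genes are filled, with *Vil1* and *Ptpn3* farthest to the right and *Pdgfrb* and *Pls1* farthest to the left, and on the right 45 of 130 are filled.

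Among the nuclei, the VPM had the most calls in these lists. There 45 of 130 genes passed the test (34.6%, beside 16.8% of all genes), 20 higher and 25 lower. Since the lists were chosen with earlier results known, nothing is read from this share. The dLG had 1, *P2ry1* (lower, adjusted *p* = 0.0746), which is 0.769% beside 1.15% of all genes. The MGv had 4, or 3.08% beside 2.33%. At an unadjusted *p* under 0.05 there were 28 genes in the dLG and 30 in the MGv. The share of all genes at that cut was not counted, so nothing is read from these numbers. The count of the VPM fell to 17, 19, and 15 without VPM replicates a, c, and d.

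In the VPM, 9 of 32 protrusion genes rose and 5 fell. Over all genes, 7.07% passed as higher and 9.78% as lower in the VPM. *Pfn2*, profilin 2, which feeds monomers to growing filaments, was at 725 ± 75.4 CPM against 476 ± 64.3 in the other nuclei (adjusted *p* = 0.0108), and *Arpc5*, an Arp2/3 subunit gene, was 1.54-fold higher (adjusted *p* = 0.0178). *Myo10*, the motor of filopodial tips, was 1.65-fold lower (adjusted *p* = 0.0347), and *Diaph1*, a formin gene, 2.08-fold lower (adjusted *p* = 0.0402).

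Of the 22 tested Hippo genes and targets, 9 fell and 1 rose in the VPM (45.5%, beside 16.8% of all genes). *Tead2*, the gene of a transcription factor that binds YAP, was 2.39-fold lower (adjusted *p* = 0.0148), *Amot* 2.21-fold (adjusted *p* = 0.0244), and *Wwc1* (KIBRA), a partner of merlin, 1.39-fold (adjusted *p* = 0.0199). *Limd1* was 1.54-fold higher (adjusted *p* = 0.00287).

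The process proteins that rose in the VPM were the connexin genes *Gjb6* (158 ± 28.6 against 55.3 ± 25.7 CPM, adjusted *p* = 4.78e-06) and *Gja1* (1.57-fold, adjusted *p* = 0.0269), the sodium pump subunit gene *Atp1b2* (1.44-fold, adjusted *p* = 0.0373), and the potassium channel gene *Kcnj10* (1.37-fold, adjusted *p* = 0.0667). *Gjb6* and *Kcnj10* were also lower in the MGv in its own comparison (adjusted *p* = 2.6e-05 and 0.025). The *Kcnj10* levels of the VPM (402.5 to 570.5 CPM) lay within the range of the other nuclei (225.3 to 627.5 CPM). *Kcnj10* was at 253.7 CPM in the MGv, and its log2 fold change for the dLG was 0.365, short of the threshold. The *Kcnj10* call in the VPM is therefore not separate from its low level in the MGv. The comparisons of the nuclei share libraries and are not independent of each other.

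Among the ERM switches in the VPM, *Ppp1cb*, the catalytic subunit gene of the phosphatase that closes ERM proteins, was 1.96-fold higher (455 ± 53.3 against 233 ± 71.9 CPM, adjusted *p* = 0.0159), and *Ppp1r12a*, its targeting subunit gene, 1.35-fold lower (adjusted *p* = 0.0535). *Prkcq*, a protein kinase C gene, was 1.56-fold higher (adjusted *p* = 0.0447). Among the membrane partners, the syndecan gene *Sdc2* was 1.62-fold higher (adjusted *p* = 0.00731) and the adhesion gene *L1cam* 2.28-fold lower (adjusted *p* = 0.027). *Selplg* and *Jak3*, genes of leukocytes, were lower in the VPM (adjusted *p* = 0.0186 and 0.0471), as were the microglial markers.

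The genes whose levels followed each of the 5 most closely were found by Pearson's *r* of log2 CPM over the 17 libraries, among 10463 genes with a mean of at least 10 CPM. These values are a description, since the libraries share regions. For *Ezr* the closest was *Slc1a3* (*r* = 0.98), followed by *S1pr1*, a sphingosine 1-phosphate receptor gene (0.97), *Acsl6* (0.97), *Cbs* (0.95), and *Pon2* (0.95), all higher in the cortex. *S1pr1* had a mean of 1072 CPM in the cortex and 338 in the thalamus. After levels were centred within the 4 groups, which leaves the variation between replicates, the closest were *Slc27a1* (0.89), *Acsl6* (0.89), *Slc41a1* (0.86), *Aldh1l1* (0.85), and *Sparcl1* (0.85). *Aldh1l1* and *Sparcl1* are widely used astrocyte genes.

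For *Slc9a3r1*, the most similar genes over the 17 libraries were *Tmem218* (0.89), *Mid1ip1* (0.88), *Wwtr1* (0.86), *Plin3* (0.86), and *Rgs20* (0.85). *Rdx* was closest to *C1ql3* (0.96), *Tram1* (0.95), *M6pr* (0.94), *Agpat5* (0.94), and *Tmx3* (0.94), *Msn* to *Acss1* (0.93), *Ndst2* (0.88), *Dcaf8* (0.87), *Khnyn* (0.87), and *Cyth3* (0.87), and *Nf2* to *Card19* (0.89), *Ralgapa2* (0.89), *Hus1* (0.87), *Fbxw4* (0.87), and *Bend4* (0.86). Centred within groups, the genes closest to *Slc9a3r1* were led by *Ttyh1* (0.87) and *Cbs* (0.86), those of *Rdx* by *Trim59* (0.94), those of *Msn* by *Dcaf8* (0.93), and those of *Nf2* by *Sdf4* (0.87). None of the 5 genes was among the closest of another. Over the 17 libraries *Ezr* had an *r* of 0.73 with *Slc9a3r1*, 0.63 with *Rdx*, 0.51 with *Msn*, and −0.64 with *Nf2*, and after centring 0.57, 0.35, 0.68, and −0.10.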

How the data were processed

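RNA was measured in 17 libraries of sorted astrocytes (SMARTer v4 amplification, 50-base single-end reads). The authors trimmed reads with Trim Galore, mapped them to GRCm38 with STAR 2.7.0d, counted them on Ensembl genes with featureCounts (Subread 1.6.4), and deposited raw read counts per gene. The strand setting was not given in the sources used here. Ensembl identifiers were matched to GENCODE M21 symbols (26548 of 26556).

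Levels are CPM scaled by TMM. Genes passing filterByExpr were tested with edgeR 4.0.16 (robust quasi-likelihood, Benjamini-Hochberg adjusted *p* under 0.1), thalamus against cortex (17856 genes) and each nucleus against the mean of the others (17319 genes). SEs are the log2 fold change over the square root of *F*. Per kilobase values use the union of exons. *Ccn1* and *Ccn2* were listed under older symbols.

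The 5 genes, the pathway lists, and the marker lists were chosen with earlier results of these data known. From each pathway list and comparison, at most 5 called genes with the lowest *p* were named; *Lats1*, *Amot*, and *Jak3* were named after their values were seen. The study calls the libraries biological replicates, each a pool of brains. Floors cover counting error only. Alternatives were CPM without TMM, the longest transcript as length, each library left out, a single fit of 4 groups, a covariate for the library number series, a block for the replicate letter, a stricter threshold (0.05), a minimum of 10 counts per library, no filter, and DESeq2 1.42.0 or its size factors. R 4.3.3 and Python 3.11.15 were used.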

Additional observations from a re-analysis of the deposited data

Results flagged for a closer look

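*Rdx* in cortex replicate c, at 228.9 CPM, lay far from the other 3 cortical libraries (261, 263, and 266 CPM), with a gap to its nearest neighbor above Dixon's critical value for 4 samples. It was the 1 such value among 20 groups examined (5 genes in 4 groups), and chance gives about 1 in 20. Without that library the log2 fold change of *Rdx* between thalamus and cortex was −0.32 in place of −0.29.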

How the results depend on the processing

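No log2 fold change of the 5 genes between thalamus and cortex changed direction under any alternative, and their levels moved by less than 1 SD without TMM. Among the nuclei, values short of the threshold changed sign for *Ezr* in the VPM (−0.015 without VPM replicate d), *Msn* in the MGv (−0.12 without MGv replicate c), and *Nf2* in the MGv (0.13 with the series, 0.004 without MGv replicate a). Counts of calls were less stable. For the dLG, 200 genes and 1 pathway gene became 525 and 6 with DESeq2, 116 and 0 at an adjusted *p* under 0.05, 104 genes with the library number series, 2 pathway genes with at least 10 counts in every library, and 3 in a fit of 4 groups. For the VPM (2917 genes, 45 pathway genes, 1 of the 5 genes), an adjusted *p* under 0.05 left 1609, 28, and 0, and 0 of the 5 passed with DESeq2's size factors, with no filter, with at least 10 counts, or with the series. For the MGv (403 and 4), DESeq2 gave 886 and 8, the stricter threshold 225 genes, and the series 238 and 2. Every MGv library was of the same series, which limits that fit.

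With 1 library left out, the region comparison gave 1155 to 2331 genes (main value 2033), 18 to 33 pathway genes (31), and 1 to 4 of the 5 genes (3), with 1 left without cortex replicate a or c, 18 pathway genes without cortex replicate d, and 1231 genes without cortex replicate b. The dLG gave 112 to 484 genes and 0 to 10 pathway genes, both highest without dLG replicate d, with few genes without dLG replicate b (112), VPM replicate a (120), c (118), or d (132), or MGv replicate d (132). The VPM gave 997 to 3895 genes, 15 to 53 pathway genes, and 0 to 1 of the 5 genes, with 997, 1119, and 1290 genes without VPM replicates a, c, and d. The MGv gave 188 to 703 genes, lowest without MGv replicate c and highest without dLG replicate c, with 227 and 206 without MGv replicates b and d and 252, 252, and 253 without VPM replicates a, c, and d. Its pathway count was 2 without MGv replicate d and 8 without dLG replicate c.

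Replicate letters are shared between groups, and whether same-letter libraries share brains or sort days was not given in the sources used here. Of 24 same-letter pairs, 4 had deviations correlated above 0.1 (median *r* 0.00666). Such correlations cannot show whether the libraries were paired. With the replicate letter as a block, the counts were 1781 genes for the regions, 116 and 0 pathway genes for the dLG, 2942 for the VPM, and 672 and 10 pathway genes for the MGv. In the VPM the block left *Rdx* short of the threshold (0.26) and *Slc9a3r1* past it (−0.34). The cause of these changes was not tested.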
